A study of Gallus gallus with 3 samples.

Results

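Of the genes that could be named on these arrays, 4 were followed here: the type I interferon IFNW1 (which the gene table also lists as IFN-beta), interleukin 4 (IL4), transforming growth factor beta 3 (TGFB3) and LITAF, a factor first described as an inducer of the cytokine TNF. They were selected on their signals, detection calls and ratios to the untreated array, so these values are descriptions and carry no test. Each had 1 probe, named through its RefSeq accession, and they are 4 of 3827 genes that could be named among 42034 probes. DT40, an established chicken B cell lymphoma line, was sampled after 4 h as untreated cells (0 µg/ml), with 0.02 µg/ml of the peptide BP5 or with 2 µg/ml of the peptide BSP-II; both peptides derive from the bursa of Fabricius, the avian organ in which B cells form. All 3 cultures shared a medium with fetal bovine and avian serum, and all cells are of a single transformed line. Each group was 1 one-colour array, so there is no replicate check and no p-value, and less RNA of a gene per cell cannot be told apart from fewer cells that make it.

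Cytokines are secreted proteins that carry signals between cells through surface receptors. Type I interferons bind the receptor pair IFNAR1 and IFNAR2, whose kinases JAK1 and TYK2 activate STAT transcription factors and switch on antiviral genes. IL4 is a T helper cytokine that acts on B cells through IL4R, with JAK1 and JAK3 as kinases. TGFB3 is made as a latent precursor and, once released, signals through TGFBR1 and TGFBR2 to SMAD2 and SMAD3. LITAF is not secreted. In mammals it is a small membrane protein of late endosomes and lysosomes.

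Of all probes the scanner software called 46.6% well above background in untreated cells, 38.0% with BP5 and 39.6% with BSP-II. The 75th percentile of the signal, to which each array was scaled, was 254.8, 178.7 and 154.1 in the same order. The dimmest probe called well above background read 30.2, 49.1 and 36.7, so the peptide arrays had lower overall signals and higher limits of detection. No probe was saturated (0 on each array), and 0 of 153 negative control spots were well above background on any array. Untreated cells were read in scan 1 and peptide-treated cells in scan 2 of the same slide, so that in every ratio to the control the scan cannot be told apart from the treatment. Where a named gene had several probes, their control levels correlated across 154 pairs (r = 0.71), but their log2 ratios did not track each other: r was -0.28 over 71 pairs with BP5 and -0.06 over 73 with BSP-II (Spearman's rho -0.10 and 0.11), with a mean absolute difference of 0.60 and 0.57. Each of the 4 genes rests on 1 probe, so no second probe checks its ratio. Of 24 B cell markers 13 had a named probe. Among these JCHAIN, the joining chain of secreted antibody, IRF4, POU2AF1, IKZF1, SYK, BTK and POU2F1 were well above background on all arrays. LYN was so on the control array alone, and PAX5, EBF1, CD79B, CD40 and SPI1 on none. Well above background on all 3 arrays were 7 of the 13, and 66.9% of all named genes. No cell type is read from these or the following counts. The summed level of the B cell markers was 266.1, 325.2 and 332.0 times the 75th percentile on the control, BP5 and BSP-II arrays. Each such sum adds all probes of its list, detected or not, and a few bright genes set it. JCHAIN and IRF4 read 42411 and 22415 on the control array, where POU2AF1, the next brightest, read 1317. For macrophages and granulocytes 4, 3 and 3 of 7 markers were detected (sums 13.2, 10.9 and 14.3). For fibroblasts, epithelium and endothelium 3 of 8 were detected on each array (sums between 4.83 and 6.0). For erythroid cells and thrombocytes it was 1 of 2 (9.99, 5.02 and 6.28). AVD (2963 on the control array) was the main part of the macrophage and granulocyte sum, and TUBB1 (2534) of the last. The part of these cells in any ratio was not tested. Marker genes past 2-fold, with BP5 only, were CLDN3, a tight junction protein (1.23 with BP5, 0.89 with BSP-II), and the thrombocyte tubulin TUBB1 (-1.003 and -0.67). After subtraction of neighbouring probes CLDN3 stood at 1.18 with BP5, and TUBB1 at -0.59, inside 2-fold. The other largest ratios of these lists were, for BP5 and BSP-II, 0.70 and 0.51 for BTK, 0.62 and 0.46 for IRF4, -0.29 and 0.11 for AVD, -0.38 and -0.06 for CTSK, and -0.46 and -0.09 for the cadherin CDH1. BTK read 81.4 on the control array, and measured probes that read 50 to 100 there had medians of 0.55 and 0.45.

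IFNW1 had a faint but detected signal that was higher with both peptides. Its processed signal, after background subtraction by the scanner software, was 72.8 ± 9.46 on the control array, 123.9 ± 15.8 with BP5 and 95.2 ± 12.0 with BSP-II, where ± is the software's error of the spot and covers neither culture nor labelling. The control reading was the lowest of the 3 and the BP5 reading the highest. The spot stood 2.41-fold, 2.52-fold and 2.60-fold above the dimmest detected probe of its array, a nearly constant margin. Before subtraction the spot medians were 154.0, 217.0 and 195.0, against local backgrounds of 47.0, 46.0 and 61.0. As compared directly, the signal was 1.70-fold the control reading with BP5 and 1.31-fold with BSP-II. Scaling each array to its 75th percentile gave levels of 0.286, 0.693 and 0.618 of that percentile.

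In the scaled values IFNW1 was 2.43-fold higher with BP5, a log2 ratio of 1.28 ± 0.26. With BSP-II it was 2.16-fold higher (1.11 ± 0.26). Both ratios lie past 2-fold, and the intervals that the spot error alone gives (95%, 0.76 to 1.79 and 0.60 to 1.62) reach below it. Of the 2578 genes measured on both arrays 2.91% were at least 2-fold higher with BP5, and 33 had a higher ratio than IFNW1; of 2615 genes 2.79% were at least 2-fold higher with BSP-II, and 53 had a higher ratio. The ratio remained past 2-fold for both peptides in 5 of 7 alternative settings (1.01 to 1.41 in log2 ratio). It was 0.37 with BP5 and 0.22 with BSP-II after normexp background correction. That setting started from spot medians and local backgrounds and added an offset of 50 to every spot. Which of these steps lowered the ratio was not tested. Without scaling it was 0.77 and 0.39. In the authors' deposited table IFNW1 differed from the control by 1.18 for BP5 and 1.01 for BSP-II on the log2 scale.

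**Figure D1:**
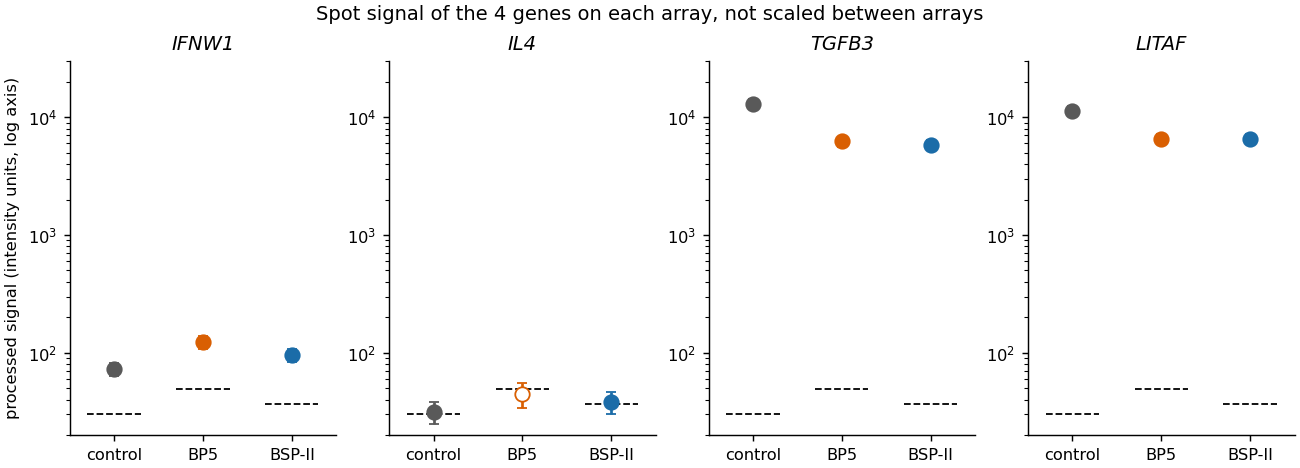
Processed spot signal (intensity units, log axis) of the 4 genes on the control, BP5 and BSP-II arrays, with the scanner software's spot error as bars; filled points are well above background, the open point is not, and each dashed line is the dimmest probe of that array called well above background. IFNW1 and IL4 lie near the lines and read higher with the peptides. IL4 is not well above background with BP5, and its BSP-II reading lies within its spot error of the control. TGFB3 and LITAF lie 127-fold to 432-fold above the lines and read lower.

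IL4 was at the edge of detection on all arrays. Its signal was 31.6 ± 6.82 on the control array, 44.3 ± 10.8 with BP5 and 38.4 ± 8.28 with BSP-II, and it was called well above background with no peptide and with BSP-II but not with BP5. The control reading was the lowest, and the BSP-II reading lay within its spot error of it. The control and BSP-II readings were 1.04-fold and 1.05-fold the dimmest detected probe of their arrays, and the BP5 reading was 0.904 of it, although 0 of 153 negative control spots reached the IL4 signal on any array. The scaled levels were 0.124, 0.248 and 0.249 of the 75th percentile. The scaled level with BP5 was nearly that with BSP-II, on an array with a higher limit of detection.

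With BSP-II the scaled ratio of IL4 was 2.01-fold (1.01 ± 0.44), just inside the 2-fold threshold, from signals that differed 1.22-fold. A probe as dim as IL4 on the control array could count as measured with BSP-II only at a log2 ratio of about 0.94 or more, because a lower one would have put it under the dimmest detected probe there. The measured ratio lies just above that limit, so no ratio near 0 could have been measured for IL4. With BP5 the corresponding limit was 1.15, and no ratio is given. The ratio with BSP-II remained past 2-fold in 1 of 7 alternative settings, with the percentile taken over detected probes (1.02). It was 0.91 after cyclic loess, 0.84 after quantile normalization, 0.83 after subtraction of neighbouring probes, 0.28 without scaling and 0.0028 after normexp. In the authors' deposited table IL4 differed from the control by 0.82 for BP5 and 0.84 for BSP-II.

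Signals of this brightness were generally higher with the peptides wherever they could be measured. Of 2470 probes that read 30 to 50 on the control array and were well above background there, 26.8% were also measured with BSP-II. Those had a median log2 ratio of 0.94, and 43.3% of them were at least 2-fold higher. IL4 lies near that median. Without the demand of detection on the BSP-II array the median of the 2470 was 0.11. For IFNW1 the matching class read 50 to 100 on the control array: 54.7% of its 3106 probes were measured with BP5, with a median of 0.55 and a 90th percentile of 1.18, and 63.3% with BSP-II, with a median of 0.45 and a 90th percentile of 1.12. IFNW1 was above this 90th percentile with BP5 and just below it with BSP-II. The limit below which IFNW1 would not have been measured was -0.06 with BP5 and -0.26 with BSP-II. A level lower than in the control by more than these small amounts would have been missed for this gene too.

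**Figure D2:**
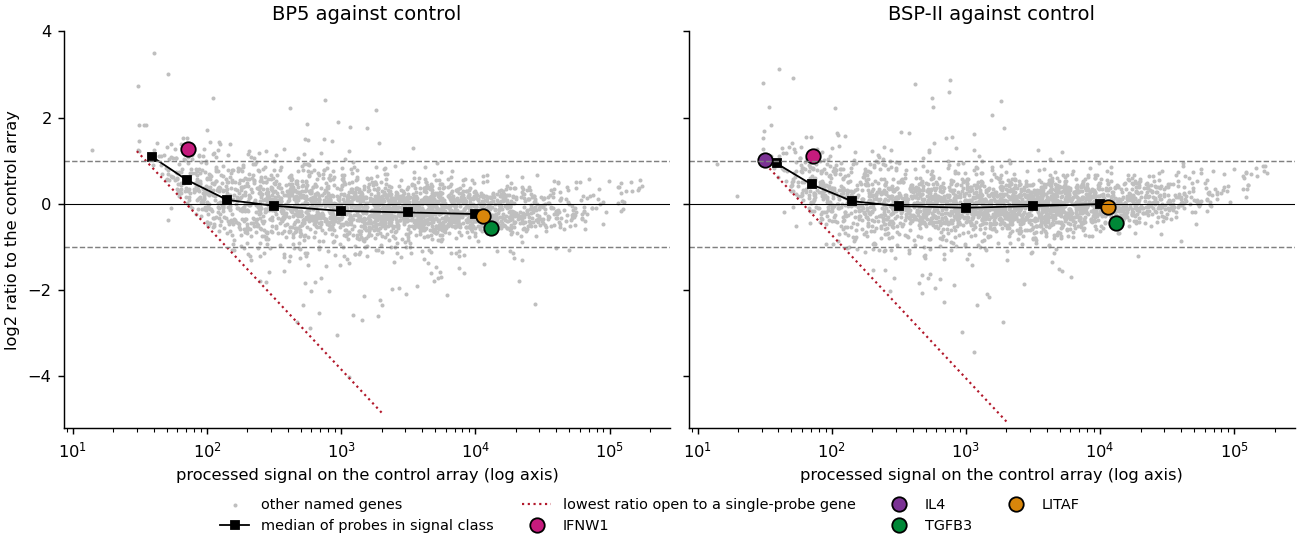
Log2 ratio to the control array for every named gene measured on both arrays, against its processed signal on the control array (log axis); black squares join the medians of probes in signal classes, the dotted line is the lowest ratio at which a gene with 1 probe could be called detected on the peptide array, and dashed lines mark 2-fold. IL4 (1.01 with BSP-II) sits on the dotted line and IFNW1 (1.28 and 1.11) above the median of its class. Among bright genes TGFB3 lies below 0 (-0.55 and -0.44) and LITAF nearer to 0 (-0.28 and -0.07).

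TGFB3 was far above background on every array and lower with both peptides, by less than 2-fold. Its signal was 13047 ± 1305 on the control array, 6237 ± 624 with BP5 and 5802 ± 580 with BSP-II. The control reading was the highest, and the readings with the peptides lay within their spot errors of each other. Scaled to the 75th percentile the levels were 51.2, 34.9 and 37.6. TGFB3 was thus 1.47-fold lower with BP5 (-0.55 ± 0.20) and 1.36-fold lower with BSP-II (-0.44 ± 0.20), with intervals of -0.95 to -0.15 and of -0.84 to -0.04. The median of all genes was -0.09 with BP5 and 0.01 with BSP-II, and 12.6% and 11.7% of genes had a lower ratio than TGFB3. At least 2-fold lower were 3.76% of genes with BP5 and 2.14% with BSP-II, and TGFB3 was not among them. Probes as bright as TGFB3 and LITAF (5000 to 20000 on the control array, 1714 probes) had a median of -0.24 with BP5 and -0.01 with BSP-II, and a 10th percentile of -0.62 and -0.42.

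The probe of TGFB3 lies in column 83 of 85, close to an edge of the array. Measured probes of that column had a median log2 ratio of -0.27 with BP5 and -0.22 with BSP-II. After subtraction of the median of the neighbouring probes, TGFB3 stood at -0.26 and -0.42. In the 6 alternative settings that scale the arrays TGFB3 was below 0, from -0.42 to -0.19 with BP5 and from -0.48 to -0.10 with BSP-II. Without any scaling it was past 2-fold (-1.06 and -1.17), with the median of all genes at -0.60 and -0.71.

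LITAF was likewise bright and differed little between the arrays. Its signal was 11371 ± 1137 on the control array, 6555 ± 656 with BP5 and 6540 ± 654 with BSP-II. As with TGFB3, the control array read highest and the peptide arrays were alike. The scaled levels were 44.6, 36.7 and 42.4, which gives log2 ratios of -0.28 ± 0.20 with BP5 and -0.07 ± 0.20 with BSP-II. The intervals, -0.68 to 0.12 and -0.47 to 0.33, include 0 and lie within 2-fold either way. Both ratios lie near the medians of equally bright probes, -0.24 and -0.01. The direction of LITAF was not stable: after subtraction of neighbouring probes it was 0.04 and 0.16, and after normexp 0.09 and 0.23. Its probe lies in column 76, whose measured probes had medians of -0.24 and -0.19. For LITAF the gene table also gives the older name TNF-alpha, but the accession is that of LITAF. No gene named TNF was found among the named probes.

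**Figure D3:**
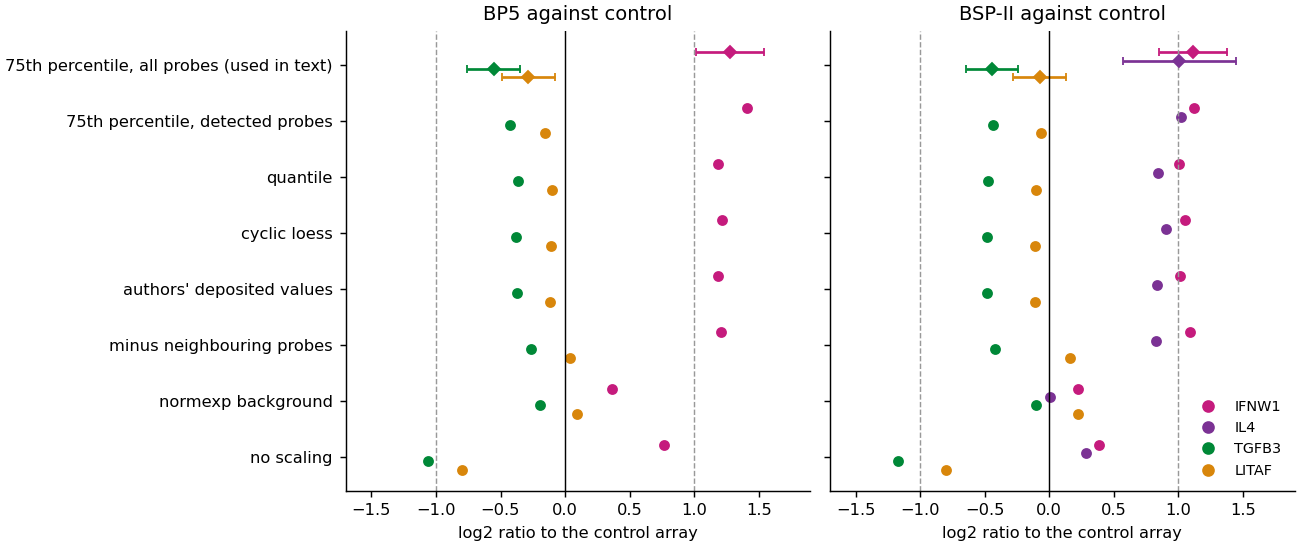
Log2 ratio to the control array of IFNW1, IL4, TGFB3 and LITAF with BP5 (left) and BSP-II (right) under 8 ways of processing; diamonds with bars are the values used in the text with their spot error, circles the alternatives, and dashed lines mark 2-fold. IFNW1 remains near or past 2-fold except with normexp or without scaling, IL4 has no value with BP5, TGFB3 stays below 0, and LITAF falls on either side of 0.

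Between the peptides, both read in scan 2, none of the 3 measured genes was past 2-fold. IL4 was not well above background with BP5 and has no ratio here. The doses differed, with 0.02 µg/ml of BP5 against 2 µg/ml of BSP-II, so peptide and dose cannot be told apart. With BSP-II relative to BP5 the log2 ratio of IFNW1 was -0.17 ± 0.26 (interval -0.67 to 0.34), that of TGFB3 0.11 ± 0.20 (-0.29 to 0.51) and that of LITAF 0.21 ± 0.20 (-0.19 to 0.61). The median of all genes was 0.11 and that of probes as bright as TGFB3 and LITAF 0.22, and of 2569 genes 1.48% reached 2-fold in the higher direction and 0.117% in the lower one. The sign of TGFB3 turned in 6 of 7 alternative settings, and LITAF was within 0.01 of 0 in 4 of 7. The ratios to the control of both peptides share the control array, and their likeness in all 3 genes is therefore no separate evidence.

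Most cytokine genes with a named probe gave no detectable signal in these cells. Whether an undetected probe means an absent transcript was not tested, and the B cell markers CD79B and PAX5 were undetected too. The 5 lists of ligands (interferons, interleukins and colony-stimulating factors, chemokines, TNF superfamily ligands with LITAF, and the TGF-beta superfamily) hold 118 symbols. Of these symbols 47 had a named probe. Of these 47, 31 were on no array well above background, IFNG, IL1B, IL2, IL6 and IL10 among them. The other 16 (34.0%, against 73.4% of all named genes) were detected on at least 1 array, and 9 (19.1%, against 66.9%) on all 3. The 4 genes followed here were selected partly on detection and are among the 16, so part of both counts was set beforehand. Besides IFNW1, TGFB3 and LITAF the genes detected on all arrays were IL18, the ciliary neurotrophic factor CNTF, the chemokine CCL1, and TGFB2, GDF3 and GDF9 of the TGF-beta superfamily. A further 6 (12.8%, against 4.21%) were detected on the control array alone, and 0 on a peptide array without the control (0.392% of all genes).

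Of the genes detected on the control array alone, FASLG and INHBB read 2.09-fold and 1.89-fold the dimmest detected probe there. The others lay nearer to that limit, from 1.06-fold for CSF3 to 1.43-fold for TNFSF13B, where IL4 was at 1.04-fold. FASLG, the ligand of the death receptor FAS, read 63.1 on the control array, 26.8 with BP5 and 23.8 with BSP-II. INHBB, an activin subunit, read 57.1, 20.7 and 15.7, and TNFSF13B, the B cell survival factor BAFF, read 43.2, 10.0 and 21.8. CCL4 read 38.3, 28.7 and 25.9, CCL20 36.8, 9.85 and 7.36, and the colony-stimulating factor CSF3 31.9, 9.92 and 23.7. For CCL20 the values 9.85 and 7.36 are the floors for dim spots on the BP5 and BSP-II arrays, not measured levels. These genes were picked by their detection on the control array, and by unscaled signal each read highest there. Scaled to the 75th percentile, CCL4 stood at 0.1501, 0.161 and 0.168 and CSF3 at 0.125, 0.0555 and 0.154, so for these genes the control was not highest. Against the limits of the peptide arrays these readings give no fold above 1 with BP5, and with BSP-II FASLG alone has one, at least 1.04-fold lower. CSF3 stood just inside the detection limit on the control array beside IL4.

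**Figure D4:**
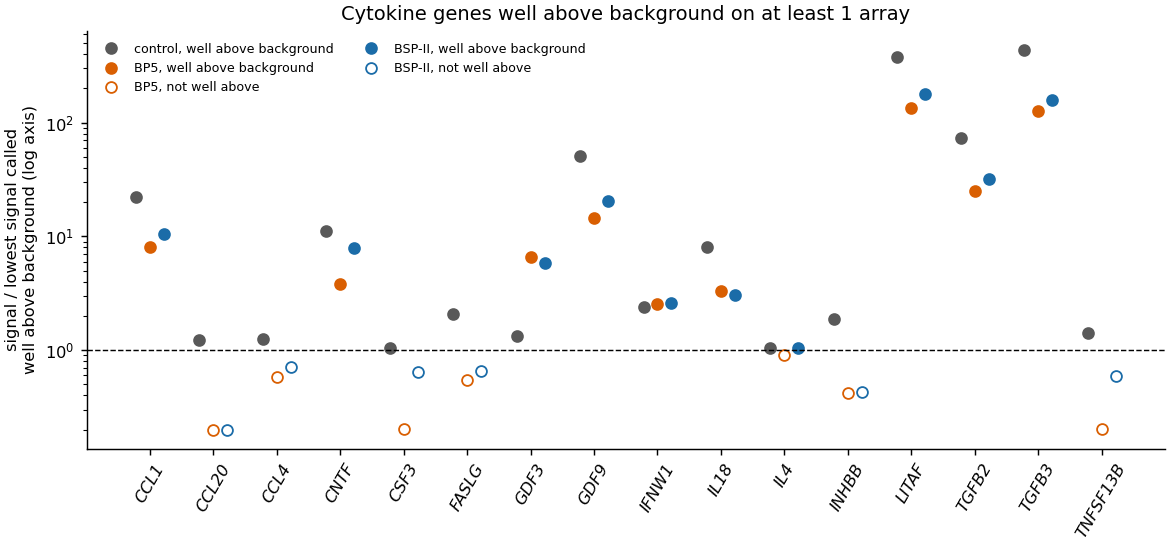
Signal of the 16 genes of the cytokine lists, LITAF included, detected on at least 1 array. Each is divided by the dimmest signal called well above background on the same array (log axis, dashed line at 1). Filled points are well above background and open points are not. IL4 lies at the line on all arrays, IFNW1 at 2.41 to 2.60 times it, 6 genes are filled in the control alone, and LITAF and TGFB3 stand highest.

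Among the other measured ligands only GDF3 was past 2-fold, and it was higher (3.49 ± 0.30 with BP5, 3.12 ± 0.30 with BSP-II). GDF3 read 40.5 on the control array, 320.4 with BP5 and 212.8 with BSP-II, in column 2 at the opposite edge of the array, where the neighbouring probes had medians of 0.66 and 0.68. TGFB2, the closest measured relative of TGFB3, read 2205, 1229 and 1169, with ratios of -0.33 ± 0.20 and -0.19 ± 0.20. Both intervals of TGFB2 include 0. CNTF was the one ligand whose ratio differed in sign between the peptides, at -0.33 ± 0.22 and 0.51 ± 0.21, with 336.5, 187.3 and 290.3 as signals. Both ratios of CNTF share a control spot with a local background of 321, where the median of that array was 43.5. On the BP5 and BSP-II arrays the local background of the spot was 45 and 59. The effect of that background on the 2 signs was not tested. IL18, a cytokine that induces IFNG in T cells, had ratios of -0.07 and -0.39, CCL1 of -0.23 and -0.07, and GDF9, a growth factor of oocytes, of -0.60 and -0.30. Over the measured genes of the 5 lists, LITAF included, 2 of 9 were at least 2-fold higher with BP5 (2.91% of all genes) and 3 of 10 with BSP-II (2.79%), and 0 were lower (3.76% and 2.14%). Nothing is read from these counts, since IFNW1 and IL4 were selected on these ratios and GDF3 is the remaining gene. The median with BP5, -0.28, is the ratio of LITAF itself. With BSP-II the median, -0.07, lies between the ratios of LITAF and CCL1.

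Pathway genes around the 4 genes were read against the share of all measured genes past 2-fold, which was 2.91% higher and 3.76% lower with BP5 and 2.79% higher and 2.14% lower with BSP-II. Of 8 measured genes of interferon receptors and JAK-STAT signalling 0 were higher and 1 was lower with each peptide (medians -0.05 and 0.12). The lower one was JAK1, the kinase that serves both the type I interferon receptor and the IL4 receptor: it read 1026 on the control array, 357.9 with BP5 and 255.9 with BSP-II, with log2 ratios of -1.01 ± 0.21 and -1.28 ± 0.21. The control reading of JAK1 was far above the others, and its ratios were -1.04 and -1.28 after subtraction of neighbouring probes. IFNAR1, a receptor chain of IFNW1, had ratios of 0.37 and 0.15, and the phosphatase PTPN11 of -0.62 and -0.66. JAK2 was not detected.

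Among interferon regulators and interferon-stimulated genes, 8 were measured, 0 were higher, and 2 were lower with BP5 and 1 with BSP-II (medians 0.05 and -0.17), beside 3.76% and 2.14% lower among all genes. SIKE1, a suppressor of the kinases TBK1 and IKK-epsilon that lie upstream of interferon production, was the lowest, at -3.03 ± 0.27 and -2.97 ± 0.25, from 936.8 on the control array to 80.2 and 72.1. IRF1 was lower with BP5 (-1.07 ± 0.34), though at -0.90 after subtraction of neighbouring probes, and had a ratio of -0.32 with BSP-II. The IRF1 spot read 159.5 on the control array, 53.4 with BP5 and 77.5 with BSP-II. Its BP5 reading was close to the limit, as the dimmest detected probe of that array read 49.1. IRF7, which drives type I interferon transcription in mammals, read 253.7 on the control array, 9.85 with BP5 and 10.7 with BSP-II. The value 9.85 is the floor for dim spots on the BP5 array, not a measured level. It was detected on the control array alone and by its bound was at least 3.63-fold and 4.19-fold lower. The antiviral genes MX1 and EIF2AK2, targets of interferon, were on no array well above background. B2M of the same list was on none either, and whether these transcripts were absent was not tested. The guanylate-binding protein GBP had ratios of 0.48 and 0.76, and IFI6 of the same list 0.19 and 0.81. Neither passed 2-fold.

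The IL4 pathway had 3 measured genes, none past 2-fold (0 of 3 with either peptide, medians 0.35 and 0.31). IL4R, the receptor chain that binds IL4, was dim, with 72.9, 72.7 and 63.5 and ratios of 0.51 ± 0.31 and 0.53 ± 0.29. Measured probes that read 50 to 100 on the control array had medians of 0.55 and 0.45, close to these ratios. The repressor BCL6, which restrains IL4 target genes in mammals, had ratios of 0.35 ± 0.22 and 0.31 ± 0.22. The shared receptor chain IL2RG and GATA3, the factor that drives IL4 in T helper cells, were not detected. Of 7 T cell markers with a named probe CD3D and CD247 were well above background on all arrays. Their ratios were -0.25 and -0.59 for BP5 and 0.18 and -0.35 for BSP-II. CD4, CD8A, CD3E, CD28 and GATA3 were on no array well above background. Of all named genes 66.9% were well above background on all 3 arrays. The summed level of the T cell markers was 15.7, 13.3 and 17.6 times the 75th percentile on the control, BP5 and BSP-II arrays. Most of it was CD3D, which read 3703 on the control array, where CD247 read 252.5. The part of T cells in the IL4 signal was not tested.

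Of 12 measured genes of TGF-beta activation, receptors and signalling 0 were past 2-fold with either peptide (medians -0.08 and -0.04). A further 2 of the 24 with a named probe, BMPR2 and SMAD5, were detected on the control array alone (4.21% of all named genes). Neither had a bound past 2-fold. The largest ratios were those of SKI, a repressor of SMAD proteins (0.96 ± 0.25 and 0.68 ± 0.25), and of ID2, an inhibitor of helix-loop-helix factors (0.53 ± 0.21 and 0.89 ± 0.21). SKI was dim and read 97.8 on the control array. Measured probes of 50 to 100 there had medians of 0.55 and 0.45, and those of 100 to 200 had 0.09 and 0.06. The receptor TGFBR1 had ratios of -0.24 and -0.32 and SMAD2 of -0.59 and -0.49, while TGFBR2 and SMAD3 were not detected. Of 17 listed LITAF partners and endosomal sorting genes only 5 had a named probe. These 5 were all measured and 0 were past 2-fold (medians -0.01 and -0.05). CHMP4B, a subunit of the ESCRT-III complex, was the one with the largest ratio with BP5 (-0.55 ± 0.20), and CHMP2B followed (0.30 ± 0.21).

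Toll-like receptors sense microbial products and activate NF-kB, which drives many cytokine genes. Of that list 10 genes were measured. With BP5 2 were higher and 2 lower, with BSP-II 2 were higher and 0 lower (medians -0.35 and -0.05), beside 2.91% higher and 3.76% lower among all genes with BP5 and 2.79% and 2.14% with BSP-II. NFKBIE, an inhibitor of NF-kB, was higher with both (1.46 ± 0.20 and 1.30 ± 0.20), as was LY86, the partner of the receptor CD180 (1.06 ± 0.21 and 1.08 ± 0.21). NFKBIE stood at 0.96 with BSP-II after subtraction of neighbouring probes. The adaptor MYD88 (-1.20 ± 0.23) and TAB1, an activator of the kinase TAK1 (-1.14 ± 0.20), were lower with BP5 and had ratios of 0.29 and -0.21 with BSP-II. After the subtraction TAB1 stood at -0.76 with BP5. TLR4, the receptor for bacterial lipopolysaccharide, and NFKB1 were not detected.

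**Figure D5:**
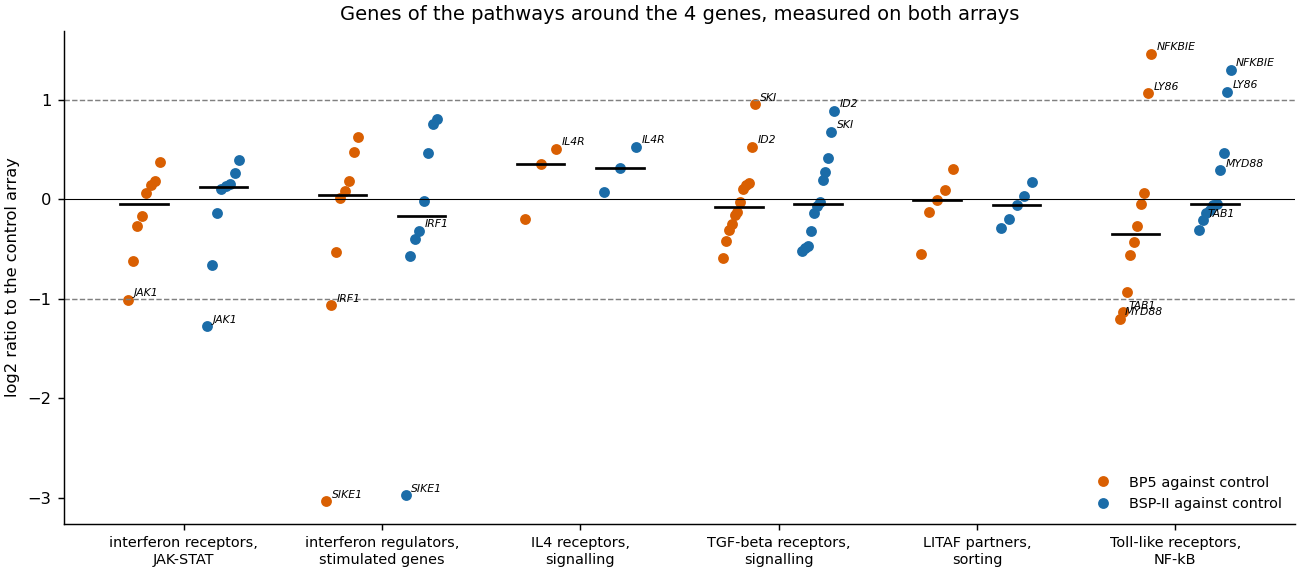
Log2 ratio to the control array of the measured genes in 6 pathway lists around the 4 genes, with BP5 and BSP-II side by side; each point is a gene, black bars are list medians, and dashed lines mark 2-fold. JAK1 and SIKE1 are past 2-fold lower and NFKBIE and LY86 past 2-fold higher with both peptides, while no gene of the IL4, TGF-beta or LITAF lists is past 2-fold.

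Likeness was measured as the Euclidean distance between pairs of log2 ratios (BP5, BSP-II) over the 2560 genes measured on all 3 arrays. Nearest to IFNW1 were CRHR1 (distance 0.03), OPN1LW (0.05) and KTN1 (0.13). CRHR1 and OPN1LW were as dim as IFNW1, at 40.1 and 57.5 on the control array, while KTN1 read 3445. Within a distance of 0.2 lay 13 genes for IFNW1, 192 for TGFB3 and 428 for LITAF; these counts follow from the ratios on which the genes were selected, that of LITAF being near the median of all genes. Nearest to TGFB3 were MCM6, ETFDH and ABCC5, and nearest to LITAF were COPE, PPT1 and GSTM2, at distances of 0.01 to 0.02. IL4 had no ratio with BP5, where it was not well above background, and was not placed.

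The genes beside them in the GRCg7b gene order were also read, without regard to their values. KIF3A, next to IL4, had ratios of -0.59 and -0.42. TTLL5, next to TGFB3, had -0.55 and -0.35, which lie close to those of TGFB3. EIF2AK1, the second gene from LITAF, had -0.51 and -0.27, and UBE2R2, the second gene from IFNW1, 0.15 and 0.16. IL5, 3 genes from IL4 and likewise a T helper cytokine, was not well above background on any array.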

How the data were processed

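Cy3-labelled cRNA from DT40 cells was hybridised to 3 one-colour Agilent arrays, 1 per group; the submitters' text mentions repeat experiments, and whether an array pools them is not stated. Feature Extraction 10.5.1.1, per the file headers and the submitters' processing notes, quantified the spots on a galGal3 grid. The deposited intensity per spot was background-subtracted and detrended over the array, with a floor for dim spots, and not normalized between arrays. The deposited flags of 0 or 1 mark spots well above background. The authors also deposited log2 values of 20085 probes, whose columns followed log2 of the same arrays' signals (r of 1.000, slopes 0.978 to 1.03, medians 7.75, 7.75 and 7.75); their normalization and filter are not given in these sources.

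Control spots (1417) and 153 probes with an outlier flag were left out. Probes were named by RefSeq accession through the GRCg7b gene table (4000 of 5017 matched), used for names and gene order only, since the builds differ; no probe sequences were used, so binding to related transcripts was not checked. Levels are log2 signals less the 75th percentile of the array's probes without an outlier flag. A ratio is the mean over a gene's probes well above background on both arrays, called at 2-fold with all probes of 1 sign. A gene detected on 1 array has a bound against the dimmest detected probe of the other. Ratio errors combine both spots' software errors, and intervals are 1.96 times these. With 1 array per group there was no test; the number of arrays limits the precision. Neighbours are probes within 5 rows and columns.

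The 4 genes and all lists were chosen with earlier results of these data known. Named genes were the 4, every detected cytokine gene, list genes past 2-fold (bounds included), the 2 largest ratios per list, and the 3 nearest in pattern; other list genes, such as receptors and undetected genes, were picked after their values were seen. Of the alternative settings, 6 were listed at the start and 2 (cyclic loess, no scaling) were chosen after seeing the data. Normexp used spot medians, as the files hold no spot means. On simulated data 100 of 100 genes changed 4-fold were recovered in each comparison of 3827 genes. There every probe was set as detected and the planted changes lay far past the 2-fold cut. That recovery therefore only checks the calculation, and says nothing of dim probes or of changes near 2-fold. R 4.3.3, limma 3.58.1, Python 3.11.15, numpy 2.4.6 and pandas 2.3.3 were used.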

Additional observations from a re-analysis of the deposited data

How the results depend on the processing

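With 1 array per group nothing below covers differences between cultures, and signal near the detection limit bounds what can be said of IL4 and IFNW1. No paired analysis was possible because each group has 1 array. A ratio counts as moved where it differs by more than its spot error. With normexp the ratio to the control moved for IFNW1 (0.37 with BP5, 0.22 with BSP-II) and IL4 (0.0028 with BSP-II). It also moved for TGFB3 (-0.19 and -0.10) and LITAF (0.092 and 0.23). What moved these ratios was not tested. Without scaling, which removes a shift common to all genes, they moved to 0.77 and 0.39, 0.28, -1.06 and -1.17, and -0.79 and -0.80. Subtraction of neighbouring probes moved TGFB3 with BP5 (-0.26) and LITAF (0.036 and 0.16). Between the peptides TGFB3 moved to -0.11 with quantile normalization, -0.11 in the authors' values, -0.11 with cyclic loess and -0.10 without scaling, and LITAF to 0.00035, 0.0026, -0.0035 and -0.0034; the cause was not tested. IFNW1 between the peptides kept its sign in all 7 alternatives. IL4 with BP5 had no value in any setting that uses the detection flags.

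Counts of genes past 2-fold depended more on the processing. With BP5, 75 genes higher and 97 lower became 41 and 34 with normexp, 760 and 178 without the filter on dim probes and 17 and 429 without scaling, and 53 were lower after subtraction of neighbouring probes. With BSP-II, 73 higher and 56 lower became 740 and 127 without the filter and 14 and 590 without scaling, and 19 were lower with normexp. Between the peptides, 38 higher and 3 lower became 16 and 5 with neighbours subtracted, 92 and 50 without the filter and 24 and 14 without scaling, and 8 were lower with the percentile over detected probes and 1 with normexp. The share of higher calls with BP5 was 43.6%, against 57.1% with the percentile over detected probes and 3.81% without scaling; with BSP-II it was 56.6% against 2.32% without scaling, and between the peptides 92.7% against 80.0% and 63.2%.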
